A study of Homo sapiens with 6 samples.

Results

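The mRNAs of 10 proteins of the RAB5 pathway were followed in RNA recovered on the FERRY complex and on the affinity tag alone. The 10 genes were taken by name: the RAB5 isoforms RAB5A, RAB5B and RAB5C, the exchange factor RABGEF1 and its partner RABEP1, and the effectors EEA1, RBSN, APPL1, APPL2 and PIK3C3. All 10 were found by symbol among the 60676 Ensembl gene IDs of the deposited count table, and all 10 were among the 15546 genes with enough counts to be tested. In the GST-Ferry arm the FERRY complex fused to glutathione S-transferase (GST-Ferry) was held on glutathione resin, and lysate of a suspension form of HEK 293, a human embryonic kidney cell line, was added to it. In the control arm GST alone took the place of the complex with the same kind of lysate. Each bait has 3 libraries, GST-Ferry 1 to 3 and GST 1 to 3, made after ribosomal RNA depletion with a strand-specific kit. The count columns are named sample and control, and reading them as GST-Ferry and GST, number for number, is an assumption from those words. No library of the input lysate was used here, so every value compares the baits, and because levels are relative to a library's total, more of 1 mRNA and less of the others cannot be told apart.

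RAB5 is a small GTPase that marks early endosomes. Exchange factors such as RABGEF1 (Rabex-5) load it with GTP, and RABEP1 (Rabaptin-5) binds both the exchange factor and active RAB5. Active RAB5 recruits the lipid kinase PIK3C3 (VPS34), which makes phosphatidylinositol 3-phosphate (PI3P), and tethering proteins such as EEA1 and RBSN (Rabenosyn-5), which bind RAB5 and PI3P together. APPL1 and APPL2 are RAB5 effectors of an early endosome population that largely lacks EEA1. FERRY itself is a RAB5 effector that binds mRNAs, so these are the mRNAs of the proteins it works beside.

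The 3 isoforms encode closely related proteins from clearly different mRNAs, which bears on whether reads can be told apart. A stretch of 150 coding bases around the P-loop, the phosphate-binding loop of the GTPase, shows this. It was read from GENCODE 29 transcripts (GRCh38), 5′ to 3′ on the coding strand. Capitals mark the bases that differ from RAB5A at the same position or, in RAB5A, the bases that differ from both other isoforms.
RAB5A: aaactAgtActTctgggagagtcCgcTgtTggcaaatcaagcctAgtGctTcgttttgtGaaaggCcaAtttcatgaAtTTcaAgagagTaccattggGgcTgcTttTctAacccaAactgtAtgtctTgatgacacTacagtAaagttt
RAB5B: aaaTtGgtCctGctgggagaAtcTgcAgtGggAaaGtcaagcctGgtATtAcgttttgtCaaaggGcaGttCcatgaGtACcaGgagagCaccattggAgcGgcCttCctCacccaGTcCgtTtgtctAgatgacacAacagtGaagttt
RAB5C: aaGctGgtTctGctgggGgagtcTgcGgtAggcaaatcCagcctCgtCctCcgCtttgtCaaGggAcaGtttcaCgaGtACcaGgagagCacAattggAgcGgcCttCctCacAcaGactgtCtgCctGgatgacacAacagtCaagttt
In this stretch 35 bases of RAB5B and 36 bases of RAB5C differed from RAB5A. GC content of the stretch was 41.3% in RAB5A, 49.3% in RAB5B and 54.7% in RAB5C. Over 215 aligned codons the encoded residues were identical at 81.9% between RAB5A and RAB5B, 87.4% between RAB5A and RAB5C and 84.7% between RAB5B and RAB5C. The coding bases were identical at 72.6%, 72.6% and 76.6% for the same pairs. The longest identical run between any annotated transcripts was 14 bases for RAB5A and RAB5B, 17 bases for RAB5A and RAB5C and 26 bases for RAB5B and RAB5C. APPL1 and APPL2 shared at most 14 bases in a run.

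Library totals ran from 2454538 to 6532665 counts with GST-Ferry and from 7390346 to 10466520 counts with GST, and 3 counts corresponded to 0.287 to 1.22 counts per 1000000 before scaling. Levels are given as CPM, counts per 1000000 of a library total scaled by its TMM factor. The bait check separated the arms: PPP1R21, the FERRY subunit mRNA with the largest fold change, had 798, 18290 and 37618 CPM in GST-Ferry 1, 2 and 3, against 39.4, 44.6 and 40.8 CPM in GST 1, 2 and 3. C12orf4 and TBCK, also FERRY subunits, were enriched too. The subunits CRYZL1 (log2 fold change -0.50) and GATD1 (0.12) were not called. Whether the RNA of the enriched subunits came from the lysate or arrived with the bait was not tested. GST 3 stood apart from the other GST libraries, with a chi-square per degree of freedom of 50.3 and 47.0 against GST 1 and GST 2, where GST 1 and GST 2 differed by 10.9. GST-Ferry 1 also differed more from GST-Ferry 2 (15.5) and GST-Ferry 3 (23.2) than those differed from each other (4.43). These values grow with the depth of the libraries, and the counts behind them include the FERRY subunits. How much of the difference the depth or the subunits make up was not tested. Markers of the line were present (LIN28B at 115 CPM with GST-Ferry and 151 CPM with GST, PAX2 at 11.3 and 10.9 CPM, NEFM at 10.3 and 5.88 CPM). Of the 4 markers of the line NEFL alone did not overlap, at 276 CPM with GST-Ferry and 124 CPM with GST (log2 fold change 1.16, edgeR adjusted p = 0.0589), and its part in the results was not tested. Of the markers of other cell types, 5 of 6 (PTPRC, HBB, ALB, CDH5 and GFAP) averaged under 1 CPM in both arms. COL1A1, the fibroblast marker, was at 50.9 to 57.4 CPM with GST-Ferry and 18.3 to 47.2 CPM with GST, and its part in the results was not tested. All 15546 genes went through the quasi-likelihood test of edgeR, and a gene is called enriched or depleted at a Benjamini-Hochberg adjusted p under 0.05.

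Of the 10 mRNAs, RAB5C was enriched on GST-Ferry and the other 9 did not pass the test. Enrichment was called for 0.592% of all tested genes, depletion for 0.0322%, and no mRNA of the 10 was depleted. The median log2 fold change of the 10 was -0.071, against -0.027 over all tested genes, with 3 of the 10 above 0. Groups did not overlap for 5 of the 10, against 27.1% of all tested genes. GST-Ferry was the higher bait for 2 of these, RAB5B and RAB5C (14.9% of tested genes), and the lower one for 3, EEA1, PIK3C3 and RABGEF1 (12.2% of tested genes).

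**Figure D1:**
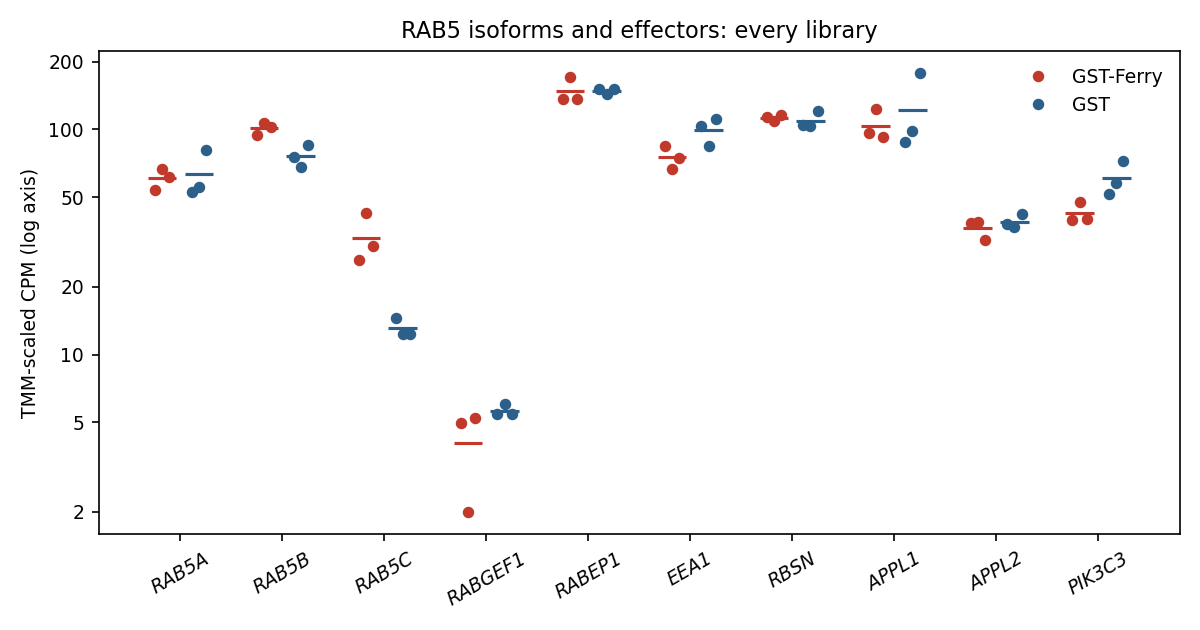
TMM-scaled CPM (log axis) of the 10 mRNAs in each library, with GST-Ferry in red left of GST in blue; points are libraries and bars are group means of 3. RAB5C lies between 26.2 and 42.6 CPM with GST-Ferry, above its 12.3 to 14.6 CPM with GST, while most other genes overlap or lie close.

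The isoforms did not share one pattern: RAB5C was enriched, RAB5B was higher in every GST-Ferry library but did not pass the test, and RAB5A overlapped between the baits. RAB5C (ENSG00000108774, chromosome 17, 42124976 to 42155044, minus strand of GRCh38) had 26.2, 42.6 and 30.4 CPM in GST-Ferry 1, 2 and 3, against 14.6, 12.3 and 12.4 CPM in GST 1, 2 and 3. These values rest on 70 to 179 reads per GST-Ferry library and 84 to 150 reads per GST library. The lowest GST-Ferry library lay well above the highest GST library. The log2 fold change was 1.32 ± 0.24 (SE; edgeR adjusted p = 0.0427), with a 95% interval of 1.74-fold to 3.60-fold.

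The RAB5C call was lost in 8 of 18 alternatives, with the log2 fold change between 1.06 and 1.48. The stricter threshold and the added readthrough counts, which were 0, could not move that fold change. The edgeR adjusted p was 0.425 without GST-Ferry 2 (log2 fold change 1.06), 0.41 without GST-Ferry 3 and 0.108 without GST 2. The adjusted p was 0.0518 with RLE size factors, 0.0721 with library sizes alone, 0.0577 with limma-voom and 0.0534 after thinning all libraries to equal depth, and the 0.0427 of the reported fit misses a threshold of 0.01. DESeq2, which called 512 genes enriched and 179 depleted, gave an adjusted p of 0.00064. Without GST 3, which stood apart from its group, and GST-Ferry 1, which had the least PPP1R21 RNA of its group, the log2 fold change was 1.45 (edgeR adjusted p = 0.000298). Both traits were read from these same counts. That fit called 1754 genes enriched and 992 depleted, against 92 and 5 in the reported fit, so its adjusted p is no separate support for the call.

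**Figure D2:**
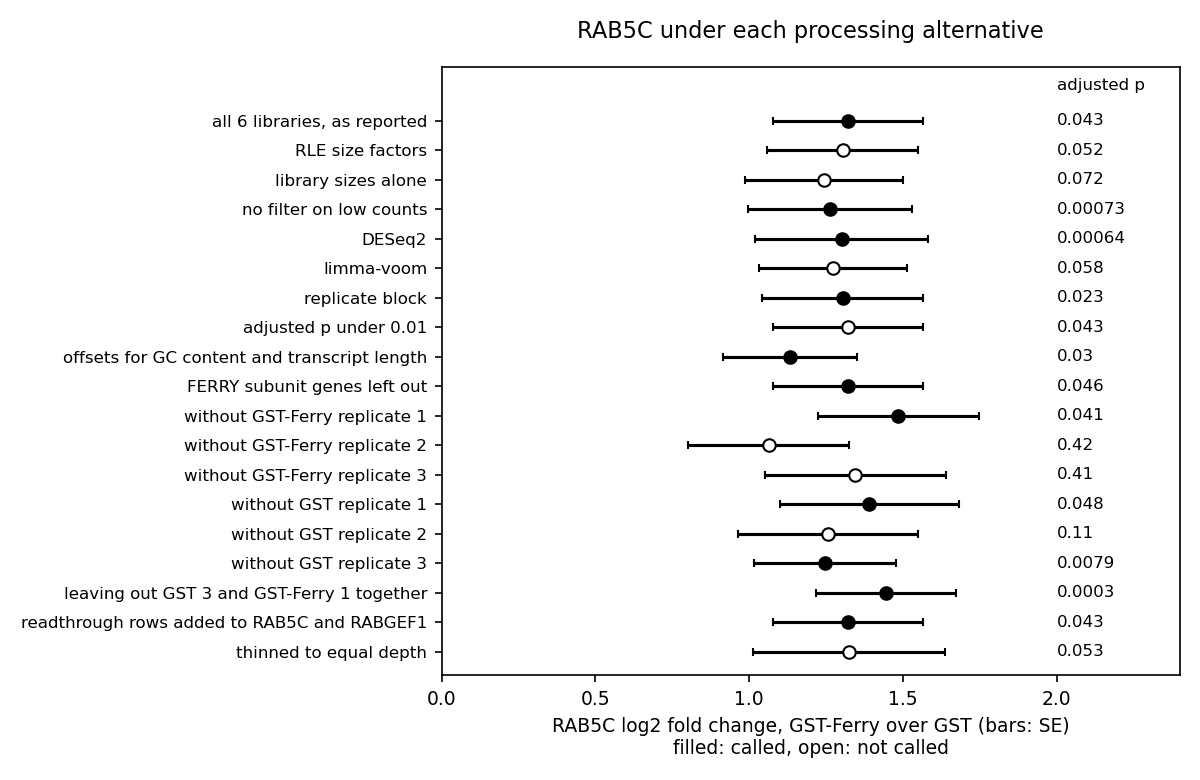
RAB5C log2 fold change of GST-Ferry over GST (bars are SE) under each way of processing, with its adjusted p at the right; filled points were called at the threshold in force and open points were not. All values lie between 1.06 and 1.48, and 8 of the 18 alternatives lose the call.

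RAB5B (ENSG00000111540, chromosome 12, 55973913 to 55996683, plus strand) had 94.8, 107 and 103 CPM in GST-Ferry 1, 2 and 3, against 75.2, 68.1 and 85.7 CPM in GST 1, 2 and 3. Every GST-Ferry library was above every GST library. Its log2 fold change was 0.41 ± 0.19 (SE; edgeR adjusted p = 0.255), with a 95% interval of 1.002-fold to 1.77-fold. RAB5B was called without GST 3 and GST-Ferry 1 together (log2 fold change 0.55, edgeR adjusted p = 0.0183). As for RAB5C, that choice of libraries rests on these same counts and gives no separate support.

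RAB5A (ENSG00000144566, chromosome 3, 19947079 to 19985175, plus strand) had 53.8, 66.8 and 61.8 CPM in GST-Ferry 1, 2 and 3, against 52.7, 55.7 and 81.0 CPM in GST 1, 2 and 3. GST 3 was the highest library of all 6 and GST 1 the lowest, so the baits overlapped. The log2 fold change was -0.056 ± 0.22 (SE; edgeR adjusted p = 0.91), with a 95% interval of 0.693-fold to 1.33-fold, and it was 0.13 without GST 3.

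Set against each other within a library, where scaling between libraries has no part, RAB5C took a larger share of the isoforms in every GST-Ferry library. Exon length here is that of all annotated exons of a gene. Counted per kilobase of exon, RAB5C made up 24.9%, 31.3% and 25.6% of the 3 isoforms in GST-Ferry 1, 2 and 3, against 17.2%, 15.1% and 11.5% in GST 1, 2 and 3. RAB5A made up 37.0% ± 1.11 with GST-Ferry and 50.1% ± 4.79 with GST (mean ± SD, n = 3 each), also without overlap. RAB5B held 35.7% ± 2.49 with GST-Ferry and 35.3% ± 1.93 with GST, and its libraries overlapped.

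On the counts as deposited the RAB5C share was 14.98% of 1195 isoform reads in GST-Ferry 1 (95% Wilson interval 13.1% to 17.1%), 19.7% of 544 in GST-Ferry 2 (16.5% to 23.2%) and 15.6% of 449 in GST-Ferry 3 (12.5% to 19.2%). It was 10.2% of 1466 in GST 1 (8.78% to 11.9%), 9.04% of 1493 in GST 2 (7.69% to 10.6%) and 6.91% of 1216 in GST 3 (5.61% to 8.47%). No GST-Ferry interval reached into a GST interval, and these intervals cover counting error only. The RAB5C to RAB5A count ratio was 0.486, 0.637 and 0.493 with GST-Ferry and 0.277, 0.221 and 0.153 with GST, a 2.54-fold difference of geometric means. An exact two-sided permutation test over the 6 libraries gave p = 0.1, the smallest that 3 against 3 allows, and 0.12 after adjustment over 6 ratios. The RAB5C to RAB5B ratio was 1.86-fold higher and the RAB5B to RAB5A ratio 1.37-fold higher with GST-Ferry, both without overlap and with the same p values from the exact permutation test. Shares and ratios within a library do not remove the trend of fold change with GC content given below. With offsets for GC and transcript length in the fit, the log2 fold changes were 1.13 for RAB5C, 0.52 for RAB5B and 0.16 for RAB5A.

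**Figure D3:**
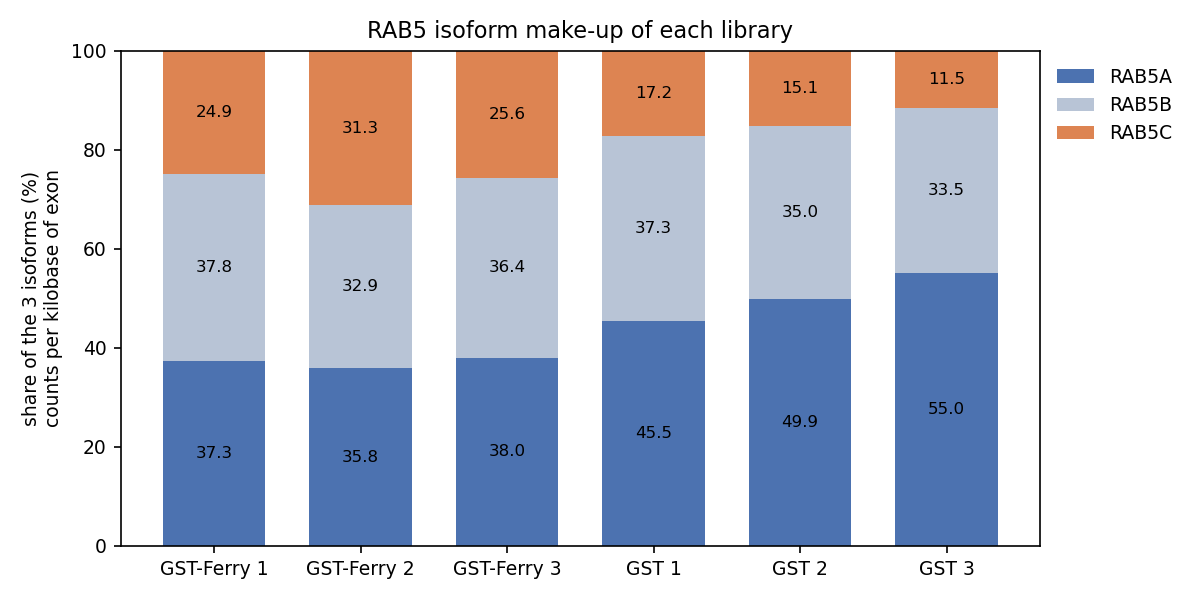
Share of RAB5A, RAB5B and RAB5C among the 3 isoforms in each library (percent, counts per kilobase of exon), with the GST-Ferry libraries left of the GST libraries. RAB5C takes 24.9% to 31.3% with GST-Ferry and 11.5% to 17.2% with GST, RAB5A takes less with GST-Ferry, and RAB5B takes 32.9% to 37.8% with GST-Ferry and 33.5% to 37.3% with GST.

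The exchange factor complex gave no change that passed the test. RABEP1 (ENSG00000029725, chromosome 17, 5282265 to 5385812, plus strand) had 136, 171 and 136 CPM in GST-Ferry 1, 2 and 3, against 151, 144 and 151 CPM in GST 1, 2 and 3. GST-Ferry 2 was the highest library and the other GST-Ferry libraries were the lowest, around GST libraries that hardly differed. Its log2 fold change was -0.0067 ± 0.19 (SE; edgeR adjusted p = 0.99), with a 95% interval of 0.752-fold to 1.32-fold. Exons of RABEP1 overlap exons of NUP88 on the opposite strand, whose own row had a log2 fold change of 0.26 (edgeR adjusted p = 0.552). Since the strand setting of the counting is not given in the sources used here, reads of the pair may have been mixed.

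RABGEF1 (ENSG00000154710, chromosome 7, 66682164 to 66811464, plus strand) was the least abundant of the 10, with 34, 5 and 12 reads in GST-Ferry 1, 2 and 3, against 56, 66 and 37 reads in GST 1, 2 and 3. Scaled, this was 4.97, 1.99 and 5.22 CPM with GST-Ferry and 5.44, 6.01 and 5.45 CPM with GST. The baits did not overlap, but GST-Ferry 3, at 5.22 CPM, lay close to GST 1 and GST 3, at 5.44 and 5.45 CPM. The log2 fold change was -0.43 ± 0.37 (SE; edgeR adjusted p = 0.549), and a 95% interval of 0.423-fold to 1.30-fold shows how little this depth resolves.

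The absolute levels of RABGEF1 and RAB5C are uncertain, because both genes share exons with another gene on the same strand. RABGEF1 shares a run of 2787 bases with the readthrough gene ENSG00000284461, which had 0 to 3 counts per library. RAB5C shares a run of 554 bases with ENSG00000267261, which had 0 counts in all 6 libraries. How reads that lie in both genes of such a pair were counted is not given in the sources used here. The related pseudogene RABGEF1P1, which shares a run of 85 bases with RABGEF1, held 349, 77 and 94 reads in GST-Ferry 1, 2 and 3 and 528, 544 and 238 reads in GST 1, 2 and 3, more than RABGEF1 itself in every library. An antisense gene whose exons overlap RABGEF1, ENSG00000272831, held 42, 13 and 13 reads with GST-Ferry and 90, 118 and 31 reads with GST, in the same range as RABGEF1 itself. Processed copies of RAB5C shared at most 34 bases with it and had 0 to 5 reads.

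Among effectors, the tether EEA1 and the kinase PIK3C3 were lower in every GST-Ferry library than in every GST library, without passing the test, and RBSN overlapped between the baits. EEA1 (ENSG00000102189, chromosome 12, 92770637 to 92929331, minus strand) had 84.7, 66.4 and 74.8 CPM in GST-Ferry 1, 2 and 3, against 103, 84.8 and 111 CPM in GST 1, 2 and 3. GST-Ferry 1 and GST 2 had nearly the same value, so the groups only just separated. The log2 fold change was -0.40 ± 0.20 (SE; edgeR adjusted p = 0.29), with a 95% interval of 0.563-fold to 1.02-fold.

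RBSN (ENSG00000131381, chromosome 3, 15070073 to 15099163, minus strand) had 113, 109 and 117 CPM in GST-Ferry 1, 2 and 3, against 105, 103 and 121 CPM in GST 1, 2 and 3. All 6 libraries lay close together. The log2 fold change was 0.044 ± 0.18 (SE; edgeR adjusted p = 0.916), with a 95% interval of 0.785-fold to 1.35-fold. The ratio of EEA1 to RBSN counts was 0.749, 0.607 and 0.642 with GST-Ferry and 0.983, 0.822 and 0.921 with GST. This ratio was lower in every GST-Ferry library (exact permutation p = 0.1, 0.12 after adjustment). That p is the smallest that 3 against 3 libraries allow, so this test could not call the ratio. When offsets for GC and transcript length entered the fit, the log2 fold changes were 0.0027 for EEA1 and 0.075 for RBSN.

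PIK3C3 (ENSG00000078142, chromosome 18, 41955206 to 42087830, plus strand) had 39.6, 47.7 and 40.0 CPM in GST-Ferry 1, 2 and 3, against 51.7, 58.0 and 72.8 CPM in GST 1, 2 and 3. The groups did not overlap. The log2 fold change was -0.52 ± 0.21 (SE; edgeR adjusted p = 0.201), with a 95% interval of 0.511-fold to 0.951-fold, and it was between -0.65 and -0.21 over all 18 alternatives. The mRNA of its regulatory subunit, PIK3R4 (VPS15), lay on the other side of 0, with 160, 229 and 184 CPM in GST-Ferry 1, 2 and 3, against 130, 137 and 158 CPM in GST 1, 2 and 3 (log2 fold change 0.43 ± 0.20, SE; edgeR adjusted p = 0.263). There were 0.248, 0.209 and 0.217 PIK3C3 reads per PIK3R4 read with GST-Ferry and 0.398, 0.424 and 0.461 with GST. The ratio was 1.90-fold higher with GST (exact permutation p = 0.1, 0.12 after adjustment). Here too that p is the smallest that 3 against 3 libraries allow, so the test could not call the ratio.

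The APPL mRNAs overlapped between the baits. APPL1 (ENSG00000157500, chromosome 3, 57227726 to 57278105, plus strand) had 96.3, 124 and 92.2 CPM in GST-Ferry 1, 2 and 3, against 87.8, 98.4 and 179 CPM in GST 1, 2 and 3. Its high value in GST 3 set the sign: the log2 fold change was -0.22 ± 0.27 (SE; edgeR adjusted p = 0.675) with all libraries and 0.13 without GST 3. APPL2 (ENSG00000136044, chromosome 12, 105173296 to 105236238, minus strand) had 38.5, 39.0 and 32.2 CPM in GST-Ferry 1, 2 and 3, against 37.9, 36.9 and 42.0 CPM in GST 1, 2 and 3. It had a log2 fold change of -0.085 ± 0.20 (SE; edgeR adjusted p = 0.841), and the 95% intervals ran from 0.575-fold to 1.27-fold for APPL1 and from 0.702-fold to 1.27-fold for APPL2. The ratio of APPL1 to APPL2 counts overlapped between the baits (exact two-sided permutation p = 0.9).

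Ordered by level per length, as CPM per kilobase of exon, RABEP1 stood first in both arms, with 22.6 ± 3.13 with GST-Ferry and 22.7 ± 0.62 with GST. With GST-Ferry there followed RAB5A (16.1), RAB5B (15.4), RBSN (14.3), APPL1 (13.9) and RAB5C (11.98), each overlapping the next, then EEA1 (7.42) and APPL2 (7.13), which overlapped each other, PIK3C3 (2.79) and RABGEF1 (0.734). With GST the order after RABEP1 was RAB5A (16.7), APPL1 (16.2), RBSN (13.8), RAB5B (11.6), EEA1 (9.82), APPL2 (7.60), RAB5C (4.74), PIK3C3 (4.00) and RABGEF1 (1.02). Among these, RAB5A overlapped APPL1, APPL1 overlapped RBSN, RAB5B overlapped EEA1 and RAB5C overlapped PIK3C3, while the other neighbours were apart. By this length RAB5C took place 6 of the 10 with GST-Ferry and place 8 with GST, below EEA1 and APPL2. The length is that of all annotated exons of a gene (2761 bases for RAB5C, 15198 for PIK3C3), not of the single transcripts given below. An order by single transcripts can differ and is not given.

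The fold changes of the 10 were higher for mRNAs of higher GC content, and so were those of all protein-coding genes. RAB5C has the shortest transcript of the 10, with 1912 bases, and the highest GC content, at 55.8%. EEA1, with 9875 bases at 34.9% GC, and PIK3C3, with 9443 bases at 38.3% GC, are the longest. RAB5A has 2536 bases at 42.0% GC and RAB5B 5340 bases at 46.3% GC. Spearman's rho between transcript GC content and log2 fold change was 0.78 over the 10 genes and 0.59 over 12859 tested protein-coding genes, as a description of the same 6 libraries. For transcript length it was -0.48 over the 10 genes and -0.26 over the protein-coding genes. One transcript per gene was taken from GENCODE 29, and which transcripts the lysate held was not measured.

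Set beside genes of like GC content, RAB5C and RAB5B stood high, EEA1 did not stand low, and RABGEF1, with few reads, stood lowest. In 10 bins of equal size by GC content, RAB5C lay 1.03 above its bin's median of 0.29 on the log2 scale. RAB5B lay 0.44 above its bin's median of -0.028. EEA1, at -0.40, lay at the median of its bin (-0.38), which also held APPL1 and PIK3C3. Relative to the bin median, PIK3C3 was at -0.14. RABGEF1 was at -0.25 relative to its bin's median of -0.18. When offsets for GC and transcript length entered the fit, the log2 fold change of EEA1 was 0.0027 ± 0.18 and that of PIK3C3 was -0.21 ± 0.17 (SE). Under the same offsets RAB5C kept its call, at 1.13 ± 0.22 (SE; edgeR adjusted p = 0.0301), and RAB5B had 0.52 ± 0.15 (SE; edgeR adjusted p = 0.0809). The fit with offsets called 266 genes enriched and 45 depleted, against 92 and 5 in the reported fit. Its adjusted p is therefore no separate support for the call. With the offsets RAB5A, RABEP1, APPL1 and APPL2 lay above 0, at 0.16, 0.18, 0.15 and 0.016, and RABGEF1 lay at -0.25 ± 0.35 (SE).

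**Figure D4:**
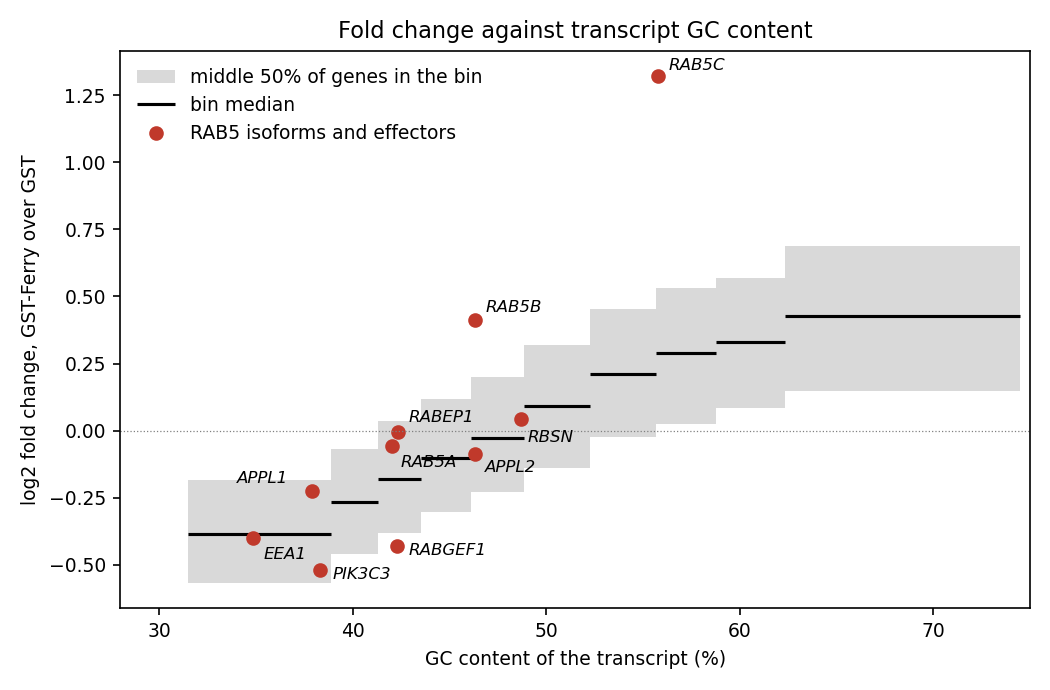
Log2 fold change of GST-Ferry over GST against transcript GC content (percent) for the 10 mRNAs (red), over the median (line) and middle 50% (grey) of tested protein-coding genes in 10 GC bins of equal size. RAB5C lies 1.03 and RAB5B 0.44 above the median of their bins, and EEA1 lies on its bin's median. RABGEF1 is lowest relative to its bin's median, at -0.25.

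**Figure D5:**
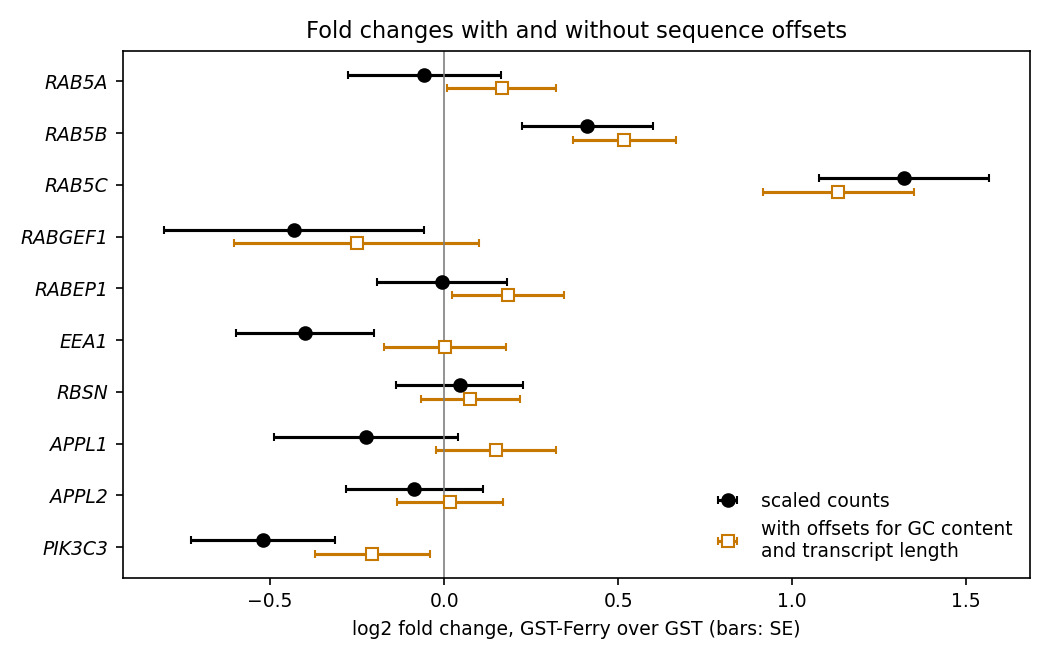
Log2 fold change of GST-Ferry over GST with SE for each of the 10 mRNAs, from scaled counts (black) and with GC and length offsets in the fit (open squares). EEA1 lies at -0.40 and, with the offsets, at 0.0027, PIK3C3 at -0.52 and -0.21, and RAB5C at 1.32 and 1.13.

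Around these 10, the mRNAs of the wider RAB5 pathway held 1 enriched gene among 62 tested of 64 listed, where 0.592% of all tested genes were enriched. It was VPS8, a subunit of the CORVET tether that binds RAB5, with 249, 525 and 357 CPM in GST-Ferry 1, 2 and 3, against 108, 135 and 161 CPM in GST 1, 2 and 3. Every GST-Ferry library exceeded every GST library, with a log2 fold change of 1.48 ± 0.27 (SE; edgeR adjusted p = 0.042). Its call was lost in 8 of 18 alternatives, with log2 fold changes of 1.13 to 1.50 in those. These were the fits without GST 1, GST 2, GST-Ferry 2 or GST-Ferry 3 (edgeR adjusted p = 0.0509, 0.0963, 0.425 and 0.41), RLE size factors (0.0518), library sizes alone (0.0626), limma-voom (adjusted p = 0.0573) and the threshold of 0.01.

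Tested were 13 genes of the RAB5 switch and its membrane cycle (exchange factors, GDP dissociation inhibitors and prenylation). Of these, 0 were called in either direction, against 0.624% of all tested genes, and the median log2 fold change was 0.015. An unadjusted p under 0.05 was found for 4 of the 13, against 19.3% of all tested genes. The most abundant were the GDP dissociation inhibitor GDI2, with 290 ± 55.4 CPM with GST-Ferry and 258 ± 96.6 CPM with GST, the exchange factor GAPVD1, with 208 ± 20.4 and 224 ± 59.9 CPM, and the RAB escort protein CHML, with 164 ± 19 and 162 ± 67.3 CPM (mean ± SD, n = 3 each). Of 28 tested effectors and tethers, VPS8 was the 1 called, with a list median of 0.057 on the log2 scale, and 8 of the 28 had an unadjusted p under 0.05. HTT, which links RAB5 vesicles to the cytoskeleton, averaged 341 ± 20.4 CPM with GST-Ferry and 302 ± 28 CPM with GST, and ANKFY1 (Rabankyrin-5), a FYVE effector, 151 ± 13.4 and 142 ± 10.3 CPM.

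Of 21 tested genes that make, read or turn over PI3P, 0 were called, against 0.624% of all tested genes. Their median log2 fold change was 0.096. An unadjusted p under 0.05 was found for 1 of the 21, against 19.3% of all tested genes. Beside PIK3R4, the most abundant by the mean of all 6 libraries were MTMR4, a PI3P phosphatase of endosomes, with 175 ± 14.1 CPM with GST-Ferry and 144 ± 11.2 CPM with GST, and ZFYVE16 (endofin), a FYVE protein. ZFYVE16 had 122, 95.9 and 93.9 CPM in GST-Ferry 1, 2 and 3, against 135, 143 and 249 CPM in GST 1, 2 and 3 (log2 fold change -0.75 ± 0.25, SE; edgeR adjusted p = 0.142). Its groups did not overlap, with GST 3 the highest library by far. Without GST 3 the log2 fold change of ZFYVE16 was -0.44, and it was -0.32 with the GC and length offsets. With GST-Ferry alone, ZFYVE16 averaged 104 CPM, below PIKFYVE (116 CPM) and HGS (111 CPM).

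For each isoform, the genes most like it across the 6 libraries were looked up. Among the 10979 tested genes that averaged 10 CPM or more, log2 CPM of RAB5C was most like that of CCT5, AFAP1L1 and TSPO (Pearson's r from 0.997 to 0.998). Pearson's r does not measure the size of a change: their log2 fold changes were 1.21, 0.59 and 1.45, and AFAP1L1 was not called (edgeR adjusted p = 0.148). RAB5B was most like INSM1, PGM1 and ATP5F1A (0.994 to 0.997), and RAB5A most like MRPS27, OTULINL and FBXO3 (0.992 to 0.994). With 6 libraries such values are common: r was over 0.9 with 751 genes for RAB5C, 369 for RAB5B and 445 for RAB5A.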

How the data were processed

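RNA from 6 pulldowns was sequenced, and the authors deposited raw read counts per Ensembl gene ID, 1 column per library. Per the submitters' processing notes, the tools were STAR 2.5.2b and bcl2fastq 2.19.1 with build GRCh38.p13. The counting program, annotation, strand setting and multi-match rule are not given in the sources used here. Symbols came from a gene name table, and gene models, transcripts and coordinates from GENCODE 29, which held 58503 of the IDs. Per gene, the transcript ranked first by APPRIS tag, basic tag and coding length was used for transcript length, GC content and coding sequence. Levels and shares per kilobase used all annotated exons of a gene.

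From the counts, edgeR 4.0.16 (R 4.3.3) filtered low genes (filterByExpr, minimum count 10, minimum total 15), scaled by TMM and ran the two-sided quasi-likelihood test on all 15546 genes, with no covariate and Benjamini-Hochberg adjustment. SE and 95% intervals come from that fit. Since nothing in the labels makes the replicates separate cultures, the p-values reflect the spread among these 6 libraries alone, and that spread may be technical. Pairs of libraries of 1 bait differed by 4.43 to 50.3 chi-square per degree of freedom, so none was treated as a duplicate.

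The 10 genes, the pathway lists and the ratios were chosen with earlier results of these data known. Named genes are the 10 genes, the FERRY subunits, every called gene and the 3 most abundant genes of each pathway list, and the 3 genes most correlated with each RAB5 isoform (log2 of CPM plus 0.5). Alternatives were RLE factors, library sizes alone, no low-count filter, DESeq2 1.42.0, limma-voom (limma 3.58.1), the replicate block, a 0.01 threshold, GC and length offsets, FERRY subunits left out, and libraries left out. Equal depth and adding the readthrough counts were chosen after seeing the data. Leaving out GST 3 and GST-Ferry 1 together rests on traits seen in these same counts. Figures used matplotlib 3.10.9.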

Additional observations from a re-analysis of the deposited data

How the results depend on the processing

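Of the 10 genes, 1 was enriched in the reported fit. The count was 0 with RLE size factors, library sizes alone, limma-voom, a threshold of 0.01 or equal depth, 2 without GST 3 and GST-Ferry 1 together, and 0 to 1 with 1 library left out. The 10 genes held 0 depleted genes under every alternative run (1 at an unadjusted p under 0.05 in edgeR's reported fit). In the pathway lists, 1 gene was enriched, against 92 of 15546 over all genes. The pathway count was 0 with RLE size factors, library sizes alone, limma-voom or the 0.01 threshold. It was 3 with DESeq2 (512 of 11760 over all genes) and 3 with no filter (421 of 32648). It was 13 without GST 3 and GST-Ferry 1 (1754 of 15242), and 0 to 4 with 1 library left out. Counts over all genes moved with the setting as well, so these counts are not read as a result about the pathway. Depleted pathway genes were 0, but 1 with no filter and 1 without GST 3 and GST-Ferry 1.

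Over all 15546 genes tested, 92 were enriched and 5 depleted. The number tested was 32648 with no filter, 11760 with DESeq2, 12986 at equal depth and 15242 without GST 3 and GST-Ferry 1. The counts were 11 and 0 with RLE, 7 and 0 with library sizes alone, 421 and 323 with no filter, 512 and 179 with DESeq2, 14 and 0 with limma-voom, 0 and 0 at the 0.01 threshold, 266 and 45 with the offsets, 146 and 19 at equal depth, and 1754 and 992 without GST 3 and GST-Ferry 1. With 1 library left out they ran from 0 to 701 and from 0 to 558, the lowest without GST-Ferry 2 (where 910 genes were higher and 794 lower by edgeR with an unadjusted p under 0.05) and the highest without GST 3.

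Replicate numbers gave no clear pairing of the libraries. Same-numbered deviations from the group means correlated at 0.246, the highest of any pair, 0.0793 and -0.133. GST-Ferry 2 and 3 each correlated better with another number. With 3 libraries per bait, these values cannot exclude a pairing. The replicate block gave 167 enriched and 28 depleted genes and changed no call among the 10 (RAB5C log2 fold change 1.30, edgeR adjusted p = 0.0235).

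Signs near 0 turned. RAB5A was 0.16 with the offsets, 0.25 without GST 3 and GST-Ferry 1, 0.0083 at equal depth and -0.19 to 0.13 with 1 library left out. RABEP1 was 0.18 with the offsets, 0.065 without GST 3 and GST-Ferry 1 and -0.17 to 0.056 with 1 library left out. APPL1 was 0.15 and 0.22 in the same settings and -0.43 to 0.13. With the offsets EEA1 was 0.0027, APPL2 0.016 and GAPVD1 0.081. RBSN was -0.016 with library sizes alone, -0.0098 with no filter, -0.027 at equal depth and -0.016 to 0.092 with 1 library left out. GAPVD1 was 0.20 without GST 3 and GST-Ferry 1 and -0.25 to 0.11 with 1 left out. With 1 left out, GDI2 was -0.040 to 0.49, ANKFY1 -0.028 to 0.14 and CHML -0.22 to 0.37. CHML was -0.0065 with RLE, -0.016 with library sizes alone, -0.036 with no filter and -0.011 with DESeq2.

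As counts in place of counts per kilobase, the isoform shares were 31.1% and 41.0% for RAB5A, 52.2% and 50.2% for RAB5B and 16.7% and 8.73% for RAB5C, with GST-Ferry and with GST. The causes of these shifts were not tested. RABGEF1, with as few as 5 reads in a library, had a log2 fold change of -0.16 ± 0.43 (SE; edgeR adjusted p = 0.859) at equal depth, and DESeq2 gave it no adjusted p.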

Other observations

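In the wider pathway, the subunits of another enzyme stood on opposite sides of 0, as PIK3C3 and PIK3R4 did. This pair was chosen after its values were seen. RABGGTA and RABGGTB are the alpha and beta subunits of the geranylgeranyl transferase that prenylates RAB proteins. RABGGTA averaged 42.6 CPM with GST-Ferry and 22.5 CPM with GST (log2 fold change 0.90 ± 0.25, SE, and edgeR adjusted p = 0.0985). Its groups did not overlap, as for 14.9% of tested genes in that direction. RABGGTB averaged 126 CPM with GST-Ferry and 188 CPM with GST (log2 fold change -0.58 ± 0.20, SE, and edgeR adjusted p = 0.159). Its groups did not overlap either, as for 12.2% of tested genes in that direction. Neither passed the test over all genes, and the difference between the subunits was not tested. Values with the GC and length offsets are not given for this pair, and subunits of other complexes were not compared in this way.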
